A study of Mus musculus with 8 samples.

Results

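The globin genes encode the α-like and β-like chains of haemoglobin. They were followed here with Bcl11a, a repressor of embryonic and fetal globin genes, in cultured mouse blood progenitors in which the Polycomb gene Pcgf1 was knocked down. The list held 9 genes, namely Hba-a1, Hba-a2, Hba-x, Hbb-b1, Hbb-b2, Hbb-bh1, Hbb-y, the α globin chaperone gene Ahsp and Bcl11a, and probes were assigned to them by matching each probe's accession to a mouse annotation. Of the 9 genes 5 had a probe, which were Hba-a1 (1 probe), Hba-x (1), Hbb-bh1 (2), Hbb-y (1) and Bcl11a (2). No probe matched the accession of Hba-a2, Hbb-b1 or Hbb-b2, and Ahsp, which has no entry in the annotation table used, was not analysed here. The array had 4 probes that carry the accession of Hbb-bt, the adult β globin gene of the C57BL/6J assembly, and these stand for adult β globin. The genes described are therefore 6 of the 17302 genes of the array, with 11 of its 41174 probes. Of these, 9 probes of 5 genes passed the filter on dim signals, for which every array of a group, in either group, had to show the probe well above background.

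The arrays measured total RNA of haematopoietic stem and progenitor cells (HSPCs) from the marrow of 4 mice, which were Runx1 Δ/Δ with mixed C57Bl/6 and 129SvJ ancestry. Runx1, a transcription factor gene of blood formation, was thus deleted in both groups. The first group carried a retroviral Pcgf1 shRNA and the second a control shRNA, with 1 culture of each from every mouse (n = 4 arrays per group). Lineage-depleted marrow grew for 2 days with IL-3 at 10 ng/ml, SCF at 50 ng/ml and both IL-11 and Flt3 ligand at 100 ng/ml, and the labels list no erythropoietin. After transduction, puromycin (5 µg/ml) was given from 24 h onward for 36 h. The age and sex of the mice and the means of the Runx1 deletion are not given in the sources used here, and the groups differ in the shRNA of cells that had all been selected for a virus.

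Haemoglobin carries oxygen in red cells as a tetramer of α-like and β-like chains, each with a haem group. In the mouse the α-like genes lie in 1 cluster and the β-like genes in another, each with embryonic genes ahead of adult ones, and a distant enhancer region drives both sets strongly once a progenitor enters the erythroid path. Primitive red cells of the yolk sac use the embryonic chains ζ (Hba-x), εy (Hbb-y) and βh1 (Hbb-bh1), whereas definitive red cells, including those of adult marrow, use the adult chains. Bcl11a is a zinc finger protein that silences embryonic β-like genes in definitive mouse cells, and it also acts in B cell and stem cell development. Factors such as Gata1 and Klf1 activate the adult genes through promoter elements with the core letters GATA or CACCC, beside CCAAT boxes, and the letters TGACCA are a binding motif of Bcl11a known from human globin promoters.

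The promoters of 1 adult and 1 embryonic gene of each cluster are shown because the results follow adult and embryonic genes beside Bcl11a, which acts on the embryonic β-like ones. Each line gives the 250 bases before the annotated start, 5′ to 3′ on the gene's strand, from RefSeq's annotation of GRCm38.p6. They are Hba-a1 (chr11:32283422-32283671, plus strand), Hbb-bt (chr7:103813924-103814173, minus strand), Hba-x (chr11:32276350-32276599, plus strand) and Hbb-y (chr7:103853208-103853457, minus strand). Capitals mark CACCC or CCAAT or a GATA element (spelled AGATAA or AGATAG or TGATAA or TGATAG) or TGACCA, each searched on both strands.
Hba-a1: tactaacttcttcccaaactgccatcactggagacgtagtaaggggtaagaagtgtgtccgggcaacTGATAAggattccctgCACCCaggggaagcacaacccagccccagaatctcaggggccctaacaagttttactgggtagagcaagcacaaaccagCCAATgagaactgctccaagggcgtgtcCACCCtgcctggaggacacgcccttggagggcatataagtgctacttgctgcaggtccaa
Hbb-bt: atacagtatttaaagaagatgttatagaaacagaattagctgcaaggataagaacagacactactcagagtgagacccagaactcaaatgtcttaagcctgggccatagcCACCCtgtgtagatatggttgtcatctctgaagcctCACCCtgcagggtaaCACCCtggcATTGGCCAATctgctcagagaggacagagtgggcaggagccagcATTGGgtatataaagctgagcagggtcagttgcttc
Hba-x: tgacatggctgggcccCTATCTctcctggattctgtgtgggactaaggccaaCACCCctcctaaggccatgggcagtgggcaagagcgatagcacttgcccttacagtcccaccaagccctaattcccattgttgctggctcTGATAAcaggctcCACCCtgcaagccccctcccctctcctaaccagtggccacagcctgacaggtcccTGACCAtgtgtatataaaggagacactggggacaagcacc
Hbb-y: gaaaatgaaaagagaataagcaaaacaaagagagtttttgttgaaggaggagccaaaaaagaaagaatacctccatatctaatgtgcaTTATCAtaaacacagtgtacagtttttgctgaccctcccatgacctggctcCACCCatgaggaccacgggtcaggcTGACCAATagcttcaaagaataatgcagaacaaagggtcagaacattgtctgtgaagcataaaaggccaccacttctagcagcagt

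In the adult α promoter CACCC began 167 and 60 bases before the start, CCAAT 88 and a GATA element 183 bases before it. The adult β promoter held CACCC at 140, 104 and 89 bases before the start and CCAAT at 75, with CCAAT on the opposite strand at 80 and 36. The embryonic Hba-x promoter held CACCC at 198 and 95, GATA elements at 234 (opposite strand) and 108, and TGACCA at 40. The Hbb-y promoter held CACCC at 111, CCAAT at 83, a GATA element at 162 (opposite strand) and TGACCA at 86, which overlaps the CCAAT. Both embryonic windows shown thus hold TGACCA and neither adult window shown does, and no window of Hbb-bh1 was available. Such short words are common: among 32851 promoter windows of the same length CACCC was present in 52.0%, CCAAT in 33.8%, a GATA element in 26.5% and TGACCA in 11.4%. These matches are letters, not measured binding.

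The genes that share sequence bear on what each probe reads. Hba-a1 (chr11:32283672-32284486) and Hba-a2 (chr11:32296492-32297310) are near-identical adult α genes, and their 250-base promoters matched at 247 of 253 aligned positions (97.6%). The Hba-a1 probe may read both, which was not tested, since a promoter match does not show what a probe reads. Hbb-bt (chr7:103812524-103813923) and its neighbour Hbb-bs are the adult β pair of the C57BL/6J assembly, with promoters 70.9% identical, and Hbb-b1 and Hbb-b2 are the adult pair of another haplotype of the locus. Which adult β transcripts each probe detected, and which haplotype each of these mixed-strain mice carried, was not tested. The embryonic genes lie upstream of the adult genes in the same clusters, with Hba-x at chr11:32276600-32278116, Hbb-bh1 at chr7:103841638-103843162 and Hbb-y at chr7:103851754-103853207. Bcl11a lies on chromosome 11 as well, at chr11:24076564-24173558.

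Of 43379 non-control spots 54.8% to 62.0% per array cleared background and 0 were flagged as saturated. Whether the brightest globin probes lost range below that limit was not tested. The Pcgf1 transcript stood at -1.74 to -1.35 with the Pcgf1 shRNA, against -0.45 to -0.01 with the control shRNA, in log2 signal relative to the array's 75th percentile, the scale of every level below. It fell to 39.0% of control (37.8% to 41.0% by mouse; adjusted p = 0.0197, limma). The progenitor genes Kit, Cd34, Flt3 and Gata2 were well above background on 4 of 4 arrays of each group. At this depth of replication limma's two-sided test called 132 of 17301 genes (0.763%) at an adjusted p of 0.05 without pairing the cultures, and 921 (5.32%) with mouse as a block, which compares the cultures within each animal. Both fits are given, since the labels name the mouse of each culture but no test.

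Adult α globin was well above background in every culture, and with Pcgf1 knocked down its signal averaged 64.0% of control without passing the test. The Hba-a1 probe had processed intensities of 26754 to 108831 with the Pcgf1 shRNA, against 51717 to 116390 with the control shRNA. In mice 1, 2, 3 and 4 the log2 level was 6.50, 6.18, 5.21 and 6.99 with the Pcgf1 shRNA, against 6.39, 7.22, 6.48 and 7.37 with the control shRNA. The culture of mouse 3 with the Pcgf1 shRNA was the lowest of all, mouse 4 was high in both groups, and the groups overlapped. The means were 6.22 ± 0.75 with the Pcgf1 shRNA and 6.87 ± 0.50 with the control shRNA (SD, n = 4 each), a log2 difference of -0.64 (SE 0.39, limma adjusted p = 0.566, or 0.172 with mouse as a block). Within mice the log2 difference was 0.11, -1.04, -1.27 and -0.38, so mouse 1 stood on the other side of 0 from the other three. Without the mouse 3 culture that carried the Pcgf1 shRNA the difference was -0.31.

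Adult β globin also averaged below control at a difference that missed the test. The brightest Hbb-bt probe had log2 levels of 8.45, 8.18, 7.38 and 8.53 with the Pcgf1 shRNA, against 8.21, 8.95, 8.27 and 8.72 with the control shRNA, in mice 1 to 4. Again mouse 3 with the Pcgf1 shRNA was lowest, the control culture of mouse 2 was highest, and the groups overlapped. The means were 8.14 ± 0.52 with the Pcgf1 shRNA and 8.54 ± 0.35 with the control shRNA (SD, n = 4 each). The log2 difference was -0.40 (SE 0.28), or 75.8% of control, with a limma adjusted p of 0.620 (0.295 with mouse as a block), and it was -0.15 without the mouse 3 culture that carried the Pcgf1 shRNA. The 4 probes of the gene gave differences of -0.47 to -0.36, so they did not disagree on its direction or its size.

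**Figure D1:**
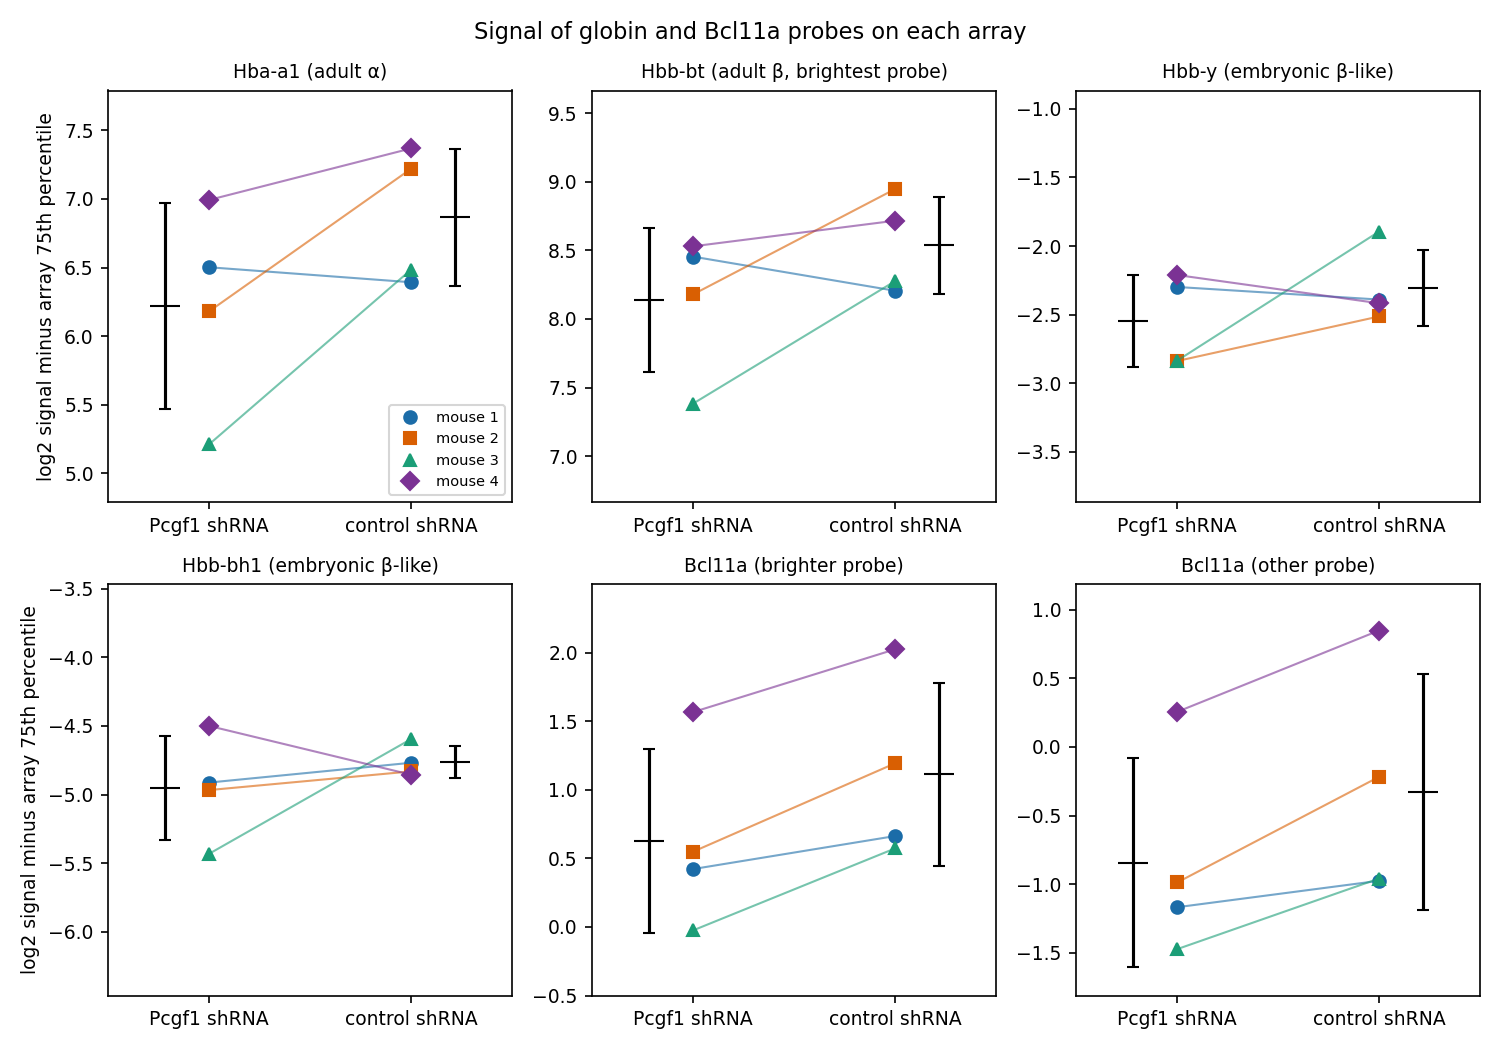
Log2 signal minus the array's 75th percentile (y axis) for adult α globin, adult β globin, both embryonic β-like genes that passed the filter, and both Bcl11a probes, with the Pcgf1 shRNA on the left and the control shRNA on the right of each panel. Lines join the cultures of 1 mouse and bars give the mean ± SD of 4 arrays. The Bcl11a lines slope the same way in 4 of 4 mice, while adult globin lines of mouse 1 run opposite to the others and the groups overlap in every panel.

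The 5 adult globin probes moved together from mouse to mouse. In mouse 1 all 5 were slightly higher with the Pcgf1 shRNA, by log2 differences of 0.11 to 0.25. They were lower by log2 differences of -1.04 to -0.70 in mouse 2, -1.27 to -0.76 in mouse 3 and -0.38 to -0.03 in mouse 4. For Hba-a1 the SD of the within-mouse differences was 0.63, about as large as their mean of -0.64. The plot of differences by mouse has mouse 1 at one end and mouse 3 at the other for each adult probe. All 5 adult probes were lowest on the array of mouse 3 with the Pcgf1 shRNA, and 4 were highest on the control array of mouse 2 and 1 on that of mouse 4. Without a block 0 of the 5 genes tested passed, against 0.763% of all genes (0.595% higher and 0.168% lower), and 0 had an unadjusted p below 0.05, which 2103 genes had. With mouse as a block 0 of the 5 passed as higher, against 2.91% of all genes. The groups overlapped for 11 of 11 probes described, whereas they did not overlap, with the Pcgf1 shRNA lower, for 2.91% of all genes and, with it higher, for 4.25%.

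The θ globin genes, Hbq1a (chr11:32300069-32300873) and Hbq1b (chr11:32286964-32287912), lie between and beside the adult α genes and are α-like relatives. Hbq1b had log2 levels of -0.86, -1.59, -2.35 and -0.76 with the Pcgf1 shRNA, against -1.59, -0.93, -1.50 and -0.67 with the control shRNA, in mice 1 to 4. Hbq1a had levels of -2.75, -3.21, -4.03 and -2.29 with the Pcgf1 shRNA, against -3.33, -2.31, -3.16 and -2.23 with the control shRNA. Both followed the signs of the adult genes, higher in mouse 1 (by 0.58 and 0.73) and lower in the other three, and their groups overlapped. The log2 differences of -0.31 for Hbq1a (limma adjusted p = 0.812) and -0.22 for Hbq1b (0.867) missed the test, and each turned above 0 without the mouse 3 culture that carried the Pcgf1 shRNA (0.0077 and 0.10). These genes were added to the description as neighbours and share 95.6% of their 250-base promoters. Whether a probe of one reads the other was not tested.

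**Figure D2:**
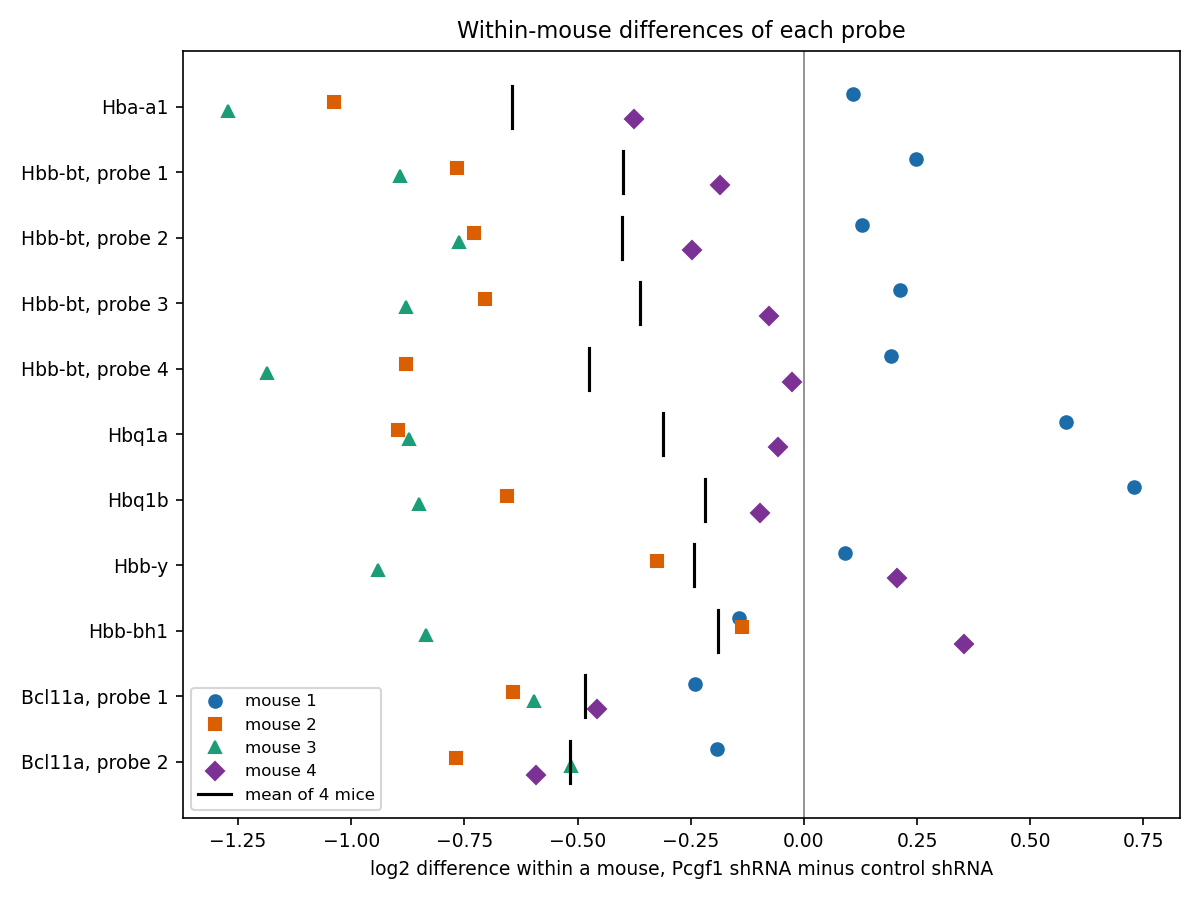
Log2 difference within each mouse, Pcgf1 shRNA minus control shRNA (x axis), for the 11 globin, θ globin and Bcl11a probes that passed the filter, with 1 symbol per mouse and a bar at the mean of 4 mice. Mouse 1 lies right of 0 for the 5 adult and 2 θ globin probes, and all 4 mice lie left of 0 for both Bcl11a probes.

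The embryonic globin genes gave signals below the arrays' 75th percentile in both groups, and none passed the test. Hbb-y, the εy gene, was well above background on 4 of 4 arrays of each group, at log2 levels of -2.30, -2.84, -2.84 and -2.21 with the Pcgf1 shRNA, against -2.39, -2.51, -1.90 and -2.42 with the control shRNA. It was lower in mice 2 and 3 and higher in mice 1 and 4, and the groups overlapped. The means were -2.55 ± 0.34 with the Pcgf1 shRNA and -2.30 ± 0.28 with the control shRNA (SD, n = 4 each), a log2 difference of -0.24 (SE 0.20, limma adjusted p = 0.674, or 0.514 in the blocked fit). Without mouse 3 the differences of the other mice left a mean of -0.01.

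Hbb-bh1, the βh1 gene, lay near the detection limit. Its brighter probe was well above background on 4 of 4 arrays with the Pcgf1 shRNA and on 3 of 4 with the control shRNA. Its log2 levels were -4.91, -4.97, -5.43 and -4.50 with the Pcgf1 shRNA, against -4.77, -4.83, -4.60 and -4.86 with the control shRNA. The lowest level of any spot flagged well above background was -5.94 to -5.22 by array. Spots above that level can still go unflagged, as in the control culture of mouse 2 (-4.83). The groups overlapped, and mouse 4 with the Pcgf1 shRNA was highest and mouse 3 with the Pcgf1 shRNA lowest. The log2 difference was -0.19 (SE 0.18, limma adjusted p = 0.726, or 0.593 in the blocked fit), and without mouse 3 it was 0.025. The other Hbb-bh1 probe was well above background on 1 array with the Pcgf1 shRNA and on 0 with the control shRNA, and was not tested. Hba-x, the ζ gene, was well above background on 0 of 8 arrays, with processed intensities of 2.94 to 3.81 with the Pcgf1 shRNA and 2.17 to 3.79 with the control shRNA, so at this signal no difference was detectable.

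Bcl11a, the repressor of embryonic β-like globin genes, was the gene of the list whose difference had one direction in all 4 mice. Its brighter probe had log2 levels of 0.42, 0.55, -0.02 and 1.57 with the Pcgf1 shRNA, against 0.66, 1.19, 0.57 and 2.02 with the control shRNA, in mice 1 to 4. Mouse 4 was high in both groups, so the groups overlapped, but each culture with the Pcgf1 shRNA lay below its own control. The within-mouse log2 differences were -0.24, -0.64, -0.60 and -0.46, and 16.2% of all genes were likewise lower in 4 of 4 mice (15.6% were higher in all 4). The means were 0.63 ± 0.67 with the Pcgf1 shRNA and 1.11 ± 0.67 with the control shRNA (SD, n = 4 each), a log2 difference of -0.48, or 71.5% of control.

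Without a block the Bcl11a difference missed the test (SE 0.41, limma adjusted p = 0.687). With mouse as a block it passed (SE 0.09, limma adjusted p = 0.0432), the 1 call among the 5 genes tested, against 2.42% of all genes called lower in that fit. The call was lost without any 1 of the mice (limma adjusted p = 0.0563, 0.204, 0.128 and 0.0916 without mice 1, 2, 3 and 4), with log2 differences of -0.57 to -0.43. The second Bcl11a probe had log2 levels of -1.17, -0.99, -1.47 and 0.26 with the Pcgf1 shRNA, against -0.98, -0.22, -0.96 and 0.85 with the control shRNA. It was also lower in 4 of 4 mice, by a mean log2 difference of -0.52. Fitted over all probes with mouse as a block, its limma adjusted p was 0.0519. Within the slides, the brighter probe differed by -0.44 for mice 1 and 2 and by -0.53 for mice 3 and 4.

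The balance of α and β chains matters for red cells because free α chains are toxic, and Ahsp binds them. The adult α signal relative to the adult β signal was computed on each array as log2 Hba-a1 minus log2 of the brightest Hbb-bt probe, which has no absolute meaning between probes but can be compared between arrays. It was -1.95, -1.997, -2.17 and -1.54 with the Pcgf1 shRNA, against -1.81, -1.73, -1.79 and -1.35 with the control shRNA, in mice 1 to 4. Each culture with the Pcgf1 shRNA lay below its own control, by -0.14, -0.27, -0.38 and -0.19, although the groups overlapped. The mean was -1.91 ± 0.27 with the Pcgf1 shRNA and -1.67 ± 0.22 with the control shRNA (SD, n = 4 each), a difference of -0.24 (exact two-sided permutation test, p = 0.257, where 0.0286 is the smallest the design allows). The exact two-sided sign-change test over mice gave p = 0.125, the smallest it can give. Against the other 3 Hbb-bt probes the difference was -0.24, -0.28 and -0.17 (exact permutation p = 0.371, 0.0857 and 0.400), lower in 4 of 4 mice each time. These 4 comparisons share the same Hba-a1 values and are not independent. Whether the probes respond alike at high signal was not tested.

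**Figure D3:**
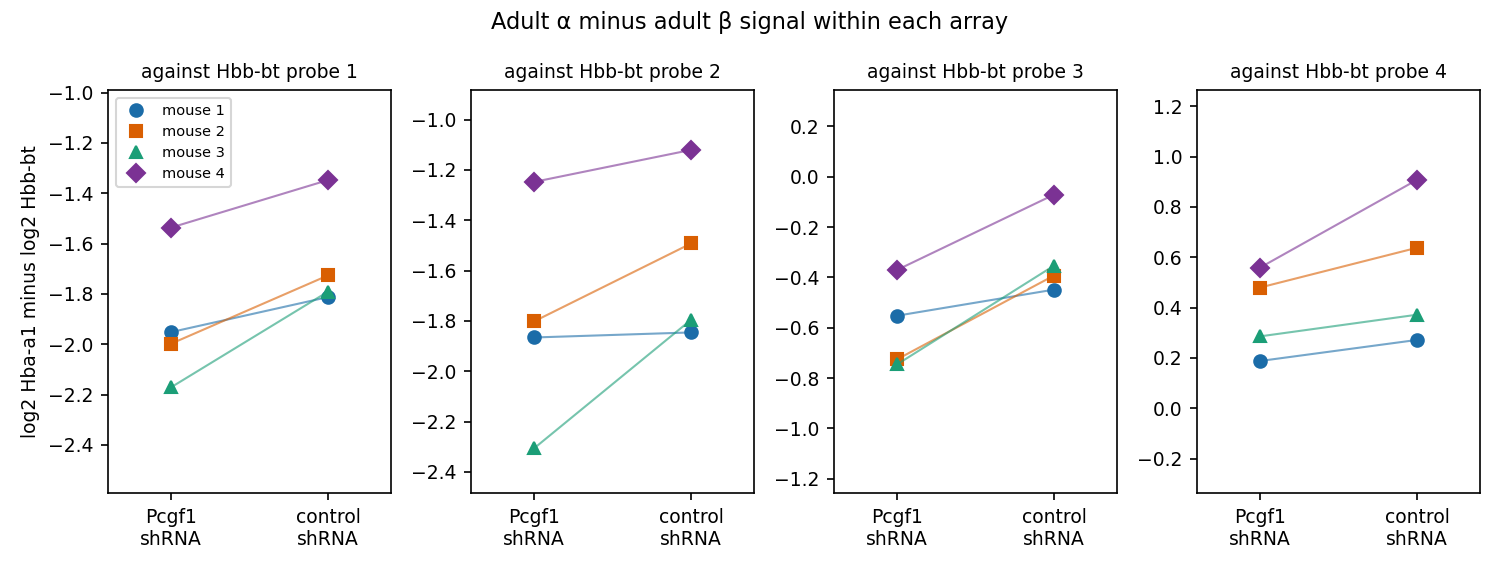
Log2 Hba-a1 minus log2 Hbb-bt within each array (y axis, log2), once against each of the 4 Hbb-bt probes, with the Pcgf1 shRNA on the left and the control shRNA on the right of each panel. Lines join the cultures of 1 mouse. The line of every mouse is lower with the Pcgf1 shRNA in each panel, by 0.17 to 0.28 on average, and the groups overlap.

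Other erythroid genes place the globin values in context, and in bulk RNA fewer erythroid cells and less erythroid RNA per cell cannot be told apart. Of 25 erythroid genes tested, among them genes of membrane, skeleton and receptor proteins of red cells, 25 had a log2 difference below 0, against 49.5% of all genes. Their median was -0.79, against 0.00 over all genes, yet 0 passed without a block. With mouse as a block 2.42% of all genes fell and 2.91% rose. In that fit 5 of the 25 fell and 0 rose: Ermap, an erythroid membrane protein gene (-1.53, limma adjusted p = 0.0310), Tspo2 (-1.22, 0.0376), the blood group adhesion gene Icam4 (-0.75, 0.0379), the carbonic anhydrase gene Car2 (-0.79, 0.0478) and the transferrin receptor gene Tfrc (-0.36, 0.0485). The anion exchanger gene Slc4a1 had a difference of -1.05 (0.0713). By mouse the median erythroid difference was -0.33, -1.07, -1.41 and -0.44, so the order of the mice was that of adult β globin, and mouse 1 lay below 0 for this list but above 0 for the globins. The summed signal of the list, in multiples of the array's 75th percentile, was 44.7 to 201 with the Pcgf1 shRNA and 113 to 291 with the control shRNA. Its part in the globin differences was not tested.

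Genes of haem synthesis, which must keep pace with globin, had a median difference smaller in size than that of the erythroid genes. Of 15 tested, 14 had a log2 difference below 0 and 1 above, with a median of -0.29, and 0 passed in either fit. Of all genes 49.5% were below 0, and 2.42% fell with mouse as a block. Among the members with the smallest p were Ppox, the penultimate enzyme of the pathway (-0.26, limma adjusted p = 0.365, or 0.149 in the blocked fit), the mitochondrial glycine carrier gene Slc25a38 (-0.31, 0.504, 0.122), and Alad, the porphobilinogen synthase gene (-0.54, 0.544, 0.0669). By mouse the list's median was -0.04, -0.40, -0.37 and -0.32. A list on the balance of haem and globin held 17 genes, antioxidant genes such as Cat and Sod1 among them. Of the 17, 13 were below 0 (median -0.13) and 0 passed without a block. With mouse as a block 1 fell, the cytochrome b5 reductase gene Cyb5r3, whose enzyme keeps haemoglobin iron reduced (-0.52, limma adjusted p = 0.101 without a block and 0.0486 with it). Nfe2l2 (-0.17), Xpo7 (0.26) and Ube2o (0.17) passed in neither fit.

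Of 32 regulators of globin genes tested, 15 had a difference above 0 and 17 below, with a median of 0.00, and 0 passed without a block. The share of all genes that fell with mouse as a block was 2.42%. With mouse as a block 2 fell: Gfi1b, a repressor needed for red cells and megakaryocytes (-0.78, limma adjusted p = 0.532 without a block and 0.0425 with it), and Klf1, an activator of adult β globin and of Bcl11a (-1.05, 0.617 and 0.0483), which was named after its values were seen. Klf1 had within-mouse log2 differences of -0.42, -1.27, -1.70 and -0.81, and those of Gfi1b were -0.31, -1.04, -1.09 and -0.67. Myb, which keeps progenitors immature and is linked to fetal globin levels in humans, had a difference of 0.30 (0.249 without a block, 0.151 with it). Klf3, a repressor that competes for CACCC elements, had -0.28 (0.435, 0.0798), and Chd4, a remodeller of the NuRD complex that works with Bcl11a, had -0.18 (0.508, 0.181). Lin28b, a fetal-stage RNA-binding protein gene that lowers BCL11A in human cells, was well above background on 0 arrays. Of 6 genes that flank the α cluster 3 were above 0 and 3 below (median -0.03), and 0 passed in either fit, with values of 0.16 for Polr3k, -0.50 for Sh3pxd2b, 0.08 for Snrnp25 and -0.09 for Rhbdf1. Among 5 other globin family genes tested, which are Hbb-bt, the θ genes, the cytoglobin gene Cygb (-0.14) and the neuroglobin gene Ngb, 0 passed in either fit, and the myoglobin gene Mb was above background on 0 arrays.

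**Figure D4:**
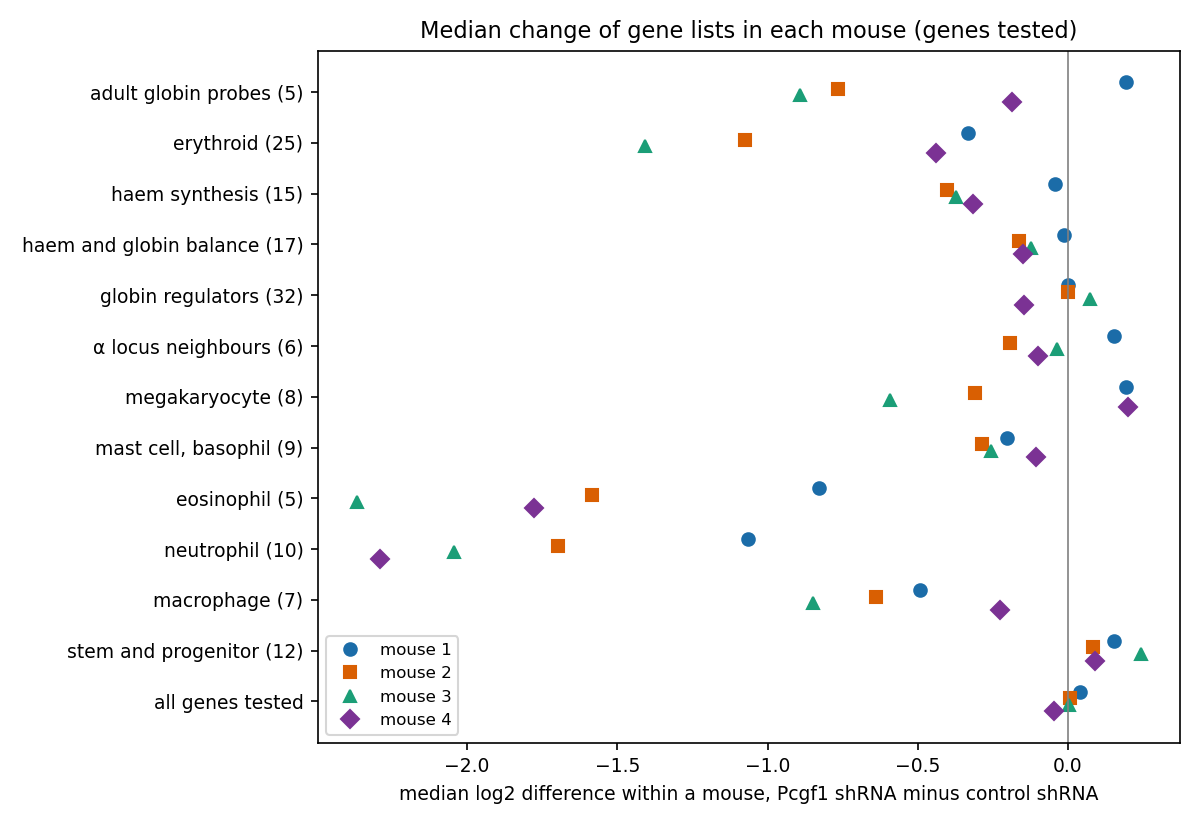
Median log2 difference within each mouse, Pcgf1 shRNA minus control shRNA (x axis), for the adult globin probes, gene lists and all genes tested, with the number of probes or genes in brackets and 1 symbol per mouse. Adult globin probes lie above 0 in mouse 1 and lowest in mouse 3, the erythroid list lies below 0 in 4 of 4 mice, and all genes lie near 0. Of the neutrophil genes, 2 were not well above background with the Pcgf1 shRNA. Their signals enter the medians as measured, so the sizes of their differences are uncertain.

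Markers of other cells also differed between the groups, and their part in the globin and Bcl11a values was not tested. Of 10 neutrophil genes 2 fell without a block (Ngp and Fcnb) and 7 fell with it. The median log2 difference was -1.79, or -1.77 with 2 genes, Ngp and Ltf, at their detection bound. Ngp and Ltf, both among the 7, were well above background on 4 control arrays and on 0 arrays with the Pcgf1 shRNA. They passed the filter only through the control group, so their calls lend no support here. Of 5 eosinophil genes 3 fell and 1 rose in the blocked fit (median -1.70), of 9 mast cell and basophil genes 1 fell without a block and 3 with it (median -0.34), and of 7 macrophage genes 1 fell with it (median -0.52). Among 12 stem and progenitor genes Cd34 rose without a block, and 3 rose and 1 fell with it (median 0.04). Of 8 megakaryocyte genes, a lineage that shares a progenitor with red cells, 0 passed in either fit (median -0.11). Of 4 stromal and endothelial genes 2 rose with the block, Pdgfrb (0.69) and Pecam1 (0.51), and the median was 0.08. The other 2, Kdr (-0.53) and Col1a2 (-0.34), were below 0 and passed in neither fit, and Cdh5 was above background on 0 arrays. Of 3 T and NK cell genes 0 passed in either fit (median -0.12), with Cd3d and Cd3g above background on 0 arrays.

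Because Bcl11a is also a B cell gene, the B cell markers stand beside it. Of 4 tested 1 was above 0 and 3 below (median -0.29), and 0 passed in either fit. Of all genes 0.763% passed without a block and 5.32% with mouse as a block. Among them were Vpreb1 at 0.39 (limma adjusted p = 0.0630 in the blocked fit), Cd79b at -0.34 (0.0559) and Cd79a at -0.28 (0.112). The summed signal of the 4 genes was 1.43 to 1.89 with the Pcgf1 shRNA and 1.78 to 2.18 with the control shRNA, in multiples of the 75th percentile. The B cell identity genes Pax5 and Ebf1 were well above background on 0 arrays.

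Likeness of pattern was measured as Pearson's r over the 8 arrays, which share their mice and groups, among 11711 genes with a symbol, and is a description. The levels of Hba-a1 and Hbb-bt correlated at 0.967, the other Hbb-bt probes at 0.961 to 0.987 with the brightest one, and the θ genes at 0.941 (Hbq1a) and 0.913 (Hbq1b) with it. Bcl11a followed adult β less closely (0.760 and 0.707 for its 2 probes), and Hbb-y least among the genes tested (0.414). With Hba-a1 the 2 Bcl11a probes correlated at 0.889 and 0.847, and Hbb-y at 0.464. Among the 5 genes most like Hbb-bt were Nsmf (0.980), Ndst2, a heparin-modifying enzyme gene (0.973), Psd (0.962) and the chromogranin gene Chga (0.958). The 5 most like Hba-a1 were Chpf, a chondroitin synthesis gene (0.991), Ndst2 (0.991), Slc4a1 (0.989), the MHC class II gene H2-Ab1 (0.988) and the integrin gene Itgb7 (0.986). None of the genes named here for their likeness passed the test between groups in either fit. With r so close over many genes, the order within these names rests on small differences.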

How the data were processed

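Total RNA of 8 cultures was measured on one-colour Agilent arrays (Cy3, 400 ng per culture), 1 slide holding mice 1 and 2 and another mice 3 and 4, each with both groups. Agilent Feature Extraction 10.1 read the scans, per the submitters' processing notes. The deposited files list, per the file headers, each spot's processed intensity after background subtraction and detrending, not normalized between arrays. A value table that the authors deposited is in log2. Over 12490 bright probes its differences between columns followed the spot files (r of 1.00), each probe was centred on its median, and column medians were 0.10, -0.05, -0.11 and -0.20 with the Pcgf1 shRNA and 0.05, 0.11, 0.10 and -0.13 with the control shRNA (mice 1 to 4). How it treats low values stays unknown. It served as an alternative.

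The log2 processed intensity was shifted so that each array's 75th percentile of non-control spots (519 to 854) was 0, 242 values of non-uniform spots were left out, and spots of a probe were averaged. The filter on dim probes kept 22747 of 41174 probes. Accessions matched to RefSeq's GRCm38.p6 annotation named 24375 probes. Each of 17302 genes was represented by its brightest probe. R 4.3.3 with limma 3.58.1 (lmFit, then eBayes) tested 17301 of them two-sided, without a block and with mouse as one, and p-values were adjusted by Benjamini-Hochberg across the whole table (threshold 0.05). The mouse numbers come from the labels. With group means removed, the arrays of a mouse correlated at 0.439, 0.481, 0.407 and 0.642 over 17252 genes (mice 1 to 4). The highest correlation of either array with an array of another mouse in the other group was 0.250, 0.250, 0.171 and -0.221. The cultures were therefore treated as paired by animal in the blocked fit. The ratio of α to β was tested by exact permutation, and the limma fits were tested on simulated data. The number of arrays limits the precision.

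The members and the 15 gene lists were chosen with earlier results of these data known. Named genes are the members, the 4 genes of each list with the smallest p, of which the main ones are described, and the 5 genes most like each adult globin; some of these are not reported here. Genes that passed with mouse as a block and others named outside this rule were chosen after their values were seen. Alternatives covered the block, slide, normalization, background correction, dim-probe filter, probe choice, the deposited table and leaving out each array or mouse.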

Additional observations from a re-analysis of the deposited data

How the results depend on the processing

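Pairing cultures by mouse moved the count of genes called from 132 (103 higher, 29 lower) to 921 (503 higher, 418 lower) and gave the 1 member call, Bcl11a (-0.48, limma adjusted p = 0.0432); it changed no other member's call. With slide as a block 48 genes were lower. With normexp background correction 76 were called (51 higher), and with no filter on dim probes, or within slide 1 or slide 2 alone, 0 were. Leaving out an array or a mouse gave 0 to 363 genes called (0 to 248 higher, 0 to 115 lower) and 0 members, with 1 gene called without mouse 1, 0 without mouse 2 or mouse 3 and 363 without mouse 4. The Pcgf1 difference was -1.44 to -1.28 in these fits, with limma adjusted p of 0.0133 to 0.352. Paired and without mouse 1, 284 genes were called (156 lower), without mouse 2, 0, and without mouse 3, 306 (177 higher, 129 lower), alternatives chosen after seeing the data. Fits without an array or a mouse had fewer arrays, and the fit with no filter tested more genes. The cause of these shifts was not tested.

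Across 11 other settings the log2 difference was -0.82 to -0.46 for Hba-a1, -0.54 to -0.26 for Hbb-bt, -0.37 to -0.12 for Hbb-y and -0.53 to -0.38 for Bcl11a, and -0.24 to -0.08 for Hbb-bh1 in 10 settings. With arrays or mice left out, the ranges were -0.90 to -0.31 for Hba-a1, -0.61 to -0.15 for Hbb-bt, -0.39 to -0.01 for Hbb-y, -0.80 to -0.18 for Bcl11a and -0.37 to -0.14 for α minus β. Hbb-bh1 ranged from -0.37 to 0.025 and turned above 0 without mouse 3, paired or not (0.025). Hbq1a (0.0077) and Hbq1b (0.10) turned above 0 without the mouse 3 culture that carried the Pcgf1 shRNA, and Hbq1b (0.037) within slide 1. Median normalization set the median of all genes at 0.10. The planned comparison of Ahsp with α globin was not run, since Ahsp was not analysed here. Signals near background limit Hbb-bh1 and Hba-x.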

Other observations

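The adult globins were higher with the Pcgf1 shRNA in mouse 1 and lower in the other three. These signs were shared by 5 of 15 haem synthesis genes (among them Alas2, Slc25a37 and Glrx5). They were also shared by 3 of 17 genes of the haem and globin balance list (Blvrb, Flvcr1 and Sod1). The share of all genes with these signs was not computed, so the counts are a description only. The genes given with values here were chosen after their values were seen. Alas2, the erythroid enzyme that starts haem synthesis, had within-mouse log2 differences of 0.60, -1.07, -1.49 and -0.21, with means of 0.95 ± 0.94 with the Pcgf1 shRNA and 1.49 ± 0.52 with the control shRNA (SD, n = 4 each). Its log2 difference of -0.54 missed the test (limma adjusted p = 0.690, 0.392 with mouse as a block). Blvrb, a biliverdin reductase gene that is abundant in red cells, had 0.38, -0.91, -0.60 and -0.56, a mean of -0.42 (limma adjusted p = 0.797, 0.294 with mouse as a block). Alas1, the enzyme gene used outside the erythroid path, had 0.09, 0.27, 0.18 and -0.02.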
